A study of Homo sapiens with 10 samples.

Results

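The genes described here are the MYC, MAX and MXD network, measured by RNA-Seq in MV4-11, an established human acute myeloid leukemia cell line, with and without a targeted IRF8 gene. The 10 members are MYC, MYCN, MAX, MXI1, MXD1, MXD3, MXD4, MNT, MGA and MLX. They were taken by gene symbol from a table of 19590 genes. The rule used no values, but earlier results of these data were known when the members were chosen. Of these members, 9 reached a mean of 10 normalized counts and were tested, and MYCN was at 0 in every library. The control group was 4 replicates of cells that carried the control vector. The IRF8 KO group was 4 replicates of cells given a lentiviral CRISPR construct with a guide RNA against IRF8. Both groups had thus been through viral infection. Knockout cells were puromycin-selected clones from limiting dilution, and the sources used here do not say which clone each library came from. Nothing states that replicates were separate cultures, so p-values measure the spread between these libraries, which may be technical.

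MYC is a transcription factor of the basic helix-loop-helix leucine zipper class that binds DNA at E-box sequences only when paired with MAX. The MXD proteins (MXD1, MXI1, MXD3 and MXD4) and the related proteins MNT and MGA also pair with MAX. MXD proteins and MNT bring the SIN3 histone deacetylase corepressor to the same sites, so that genes driven by MYC are held down. MLX is a parallel partner that pairs with some MXD proteins, with MNT and with the glucose-sensing factors MLXIP and MLXIPL. In blood cells, MYC is known for driving growth and division, while MXD1 is known for rising as myeloid cells mature. IRF8 is a transcription factor of the monocyte and dendritic cell lineage. The comparison of knockout with control asks which of these transcripts differ once IRF8 is targeted.

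The upstream sequence of members can be read for the letters that these factors are known to bind, and the stretches that hold such letters in 4 of the members are shown. RefSeq windows of 300 bases (250 before the start site and the rest after it, GRCh38.p14) were given for 9 of the members, 14 windows in all. MYC had no window, so its upstream sequence was not searched. Both strands were searched for the E-box letters CACGTG, for the IRF pair (GAAA, any 2 bases, GAAA) and for the ETS-IRF composite (GGAA, any 2 bases, GAAA). The E-box letters were found in the windows of MXD4, MNT and MLX, against 7.26% of 35116 windows over all genes. The composite letters were found in MXI1 alone among the members, in 2 of its windows, against 2.82% of all windows. The IRF pair was found in 0 of the 14 windows, against 3.57% of all windows, and so few windows do not allow a comparison. Each stretch below is 60 bases long, lies upstream of a start site and is written 5′ to 3′ on the strand of the gene, with the matched letters in capitals. In the first MXI1 stretch the composite is on the opposite strand. A match is a description of the letters and not a binding site.
MXI1 (chr10:110207373-110207432, plus strand): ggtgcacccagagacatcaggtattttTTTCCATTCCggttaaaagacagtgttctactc
MXI1 (chr10:110225764-110225823, plus strand): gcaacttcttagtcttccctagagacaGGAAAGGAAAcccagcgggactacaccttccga
MXD4 (chr4:2262300-2262359, minus strand): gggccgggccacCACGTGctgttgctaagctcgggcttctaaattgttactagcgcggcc
MNT (chr17:2401221-2401280, minus strand): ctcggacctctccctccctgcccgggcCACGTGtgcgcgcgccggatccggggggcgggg
MLX (chr17:42567023-42567082, plus strand): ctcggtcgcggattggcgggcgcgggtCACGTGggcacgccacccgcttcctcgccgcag

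IRF8 transcripts were read first, which does not test the edit of the gene itself. The authors report by Western blot that the knockout clones lacked IRF8 protein. The control libraries, in the order of replicates 1 to 4, held 36891, 15192, 43016 and 22535 normalized counts of IRF8. The knockout libraries held 6377, 2401, 12903 and 7819.7. Every knockout library was below every control library, and the log2 fold change was -2.11 (SE 0.51, limma adjusted p = 0.0222). That call was lost without control replicate 1, control replicate 3 or knockout replicate 1, with an adjusted p of up to 0.0585. Read totals on genes were 48762519 to 65519047 in control libraries and 39560072 to 54048461 in knockout libraries. Normalized counts are reads divided by a size factor, which sets libraries of different depth on a single scale. Fold changes are knockout minus control on the scale of log2(normalized count + 1). They were tested with limma, whose p-values were adjusted for the 13110 tested genes by the Benjamini-Hochberg method.

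No member of the network passed the test for a difference between knockout and control. At an adjusted p below 0.05, limma called 0 of the 9 tested members, against 18.2% of all tested genes (8.65% higher and 9.56% lower in the knockout). At an unadjusted p below 0.05 it called only MXD4, against 31.6% of all tested genes. edgeR and DESeq2 on recovered reads also called 0 members, against 17.8% and 25.9% of all tested genes. limma with the replicate number as a block, and with a covariate that sets replicates 1 and 3 against 2 and 4, called 0 members as well, against 28.7% and 33.1%. At an unadjusted p below 0.01 with an at least 2-fold change, 0 members were called, against 10.9%. The member fold changes ran from -0.40 for MXD3 to 0.41 for MXD4, with a median of -0.062 against -0.00094 over all tested genes. In absolute size their median was 0.15, against 0.30 over all tested genes. The 95% intervals of all 9 members lay between a log2 of -0.97 and 0.81, that is between 0.509-fold and 1.75-fold. Intervals within a 2-fold change in either direction were found for 60.2% of all tested genes. In bulk RNA, fewer cells with a transcript and less of it per cell cannot be told apart.

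**Figure D1:**
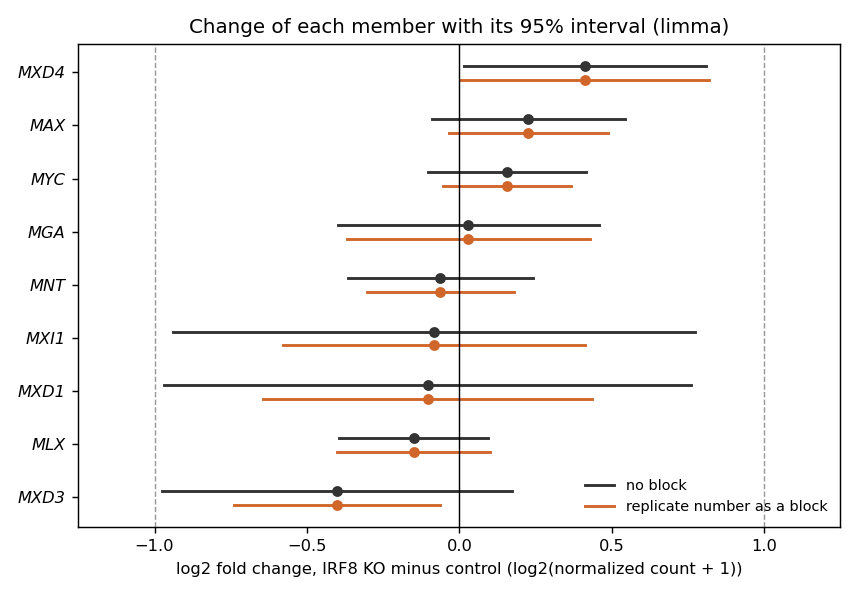
Log2 fold change of each tested member (horizontal axis, knockout minus control) with its 95% interval from limma, without a block in black and with the replicate number as a block in orange. Every interval stays inside the dashed lines at a 2-fold change, and MXD4 at 0.41 and MXD3 at -0.40 lie at the ends.

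MYC, the activator at the centre of the network, was abundant in every library. Control replicates 1 to 4 held 27179, 28248, 23696 and 24585 normalized counts, and the knockout replicates held 30746, 31982, 26292 and 26723. The ranges overlapped, although each knockout library was above the control library of the same number. The mean was 25927 ± 2140 (SD, n = 4) in control and 28936 ± 2854 (SD, n = 4) in knockout cells, a log2 fold change of 0.16 (SE 0.11, limma adjusted p = 0.400). An exact two-sided permutation test of 4 against 4 libraries gave p = 0.171, where the smallest p it can give is 0.0286. The 95% interval ran from 0.931-fold to 1.33-fold. MYC lies on chromosome 8, where the median log2 fold change was 0.09, and relative to its chromosome MYC differed by 0.08. The paired differences in log2 were 0.18, 0.18, 0.15 and 0.12 for replicates 1 to 4. Blocking on the replicate number gave a limma adjusted p of 0.229. MYC transcripts varied by 1.35-fold between the lowest and the highest of the 8 libraries, and the MYC spread within groups was smaller than that of all but 9.39% of tested genes.

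Of the other MYC family genes, MYCN was not detected and MYCL was lower in the knockout. MYCN, the family member known from neuroblastoma, had 0 reads in all 8 libraries. MYCL, the family member known from small cell lung cancer and dendritic cells, is outside the members and was measured as a reference point. MYCL held 443, 657, 469 and 906 normalized counts in control replicates 1 to 4 and 28.8, 181, 98.9 and 145 in the knockout replicates. All knockout values lay below all control values. The mean of MYCL was 619 ± 214 (SD, n = 4) in control and 113 ± 65.5 (SD, n = 4) in knockout cells, a fall by 2.66 on the log2 scale (SE 0.54, limma adjusted p = 0.00989). It was called with each library left out in turn, where its log2 fold change lay between -2.97 and -2.10.

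MAX, the shared partner without which MYC and the MXD proteins do not bind DNA, held 4626, 4971, 4565 and 5120.1 normalized counts in the control replicates. The knockout replicates held 4509, 6693, 5388 and 6198. Replicate 1 of the knockout was below all controls and the other knockout libraries were above them, so the groups overlapped. MAX had a log2 fold change of 0.23 (SE 0.14, limma adjusted p = 0.311), with an interval from -0.09 to 0.54.

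**Figure D2:**
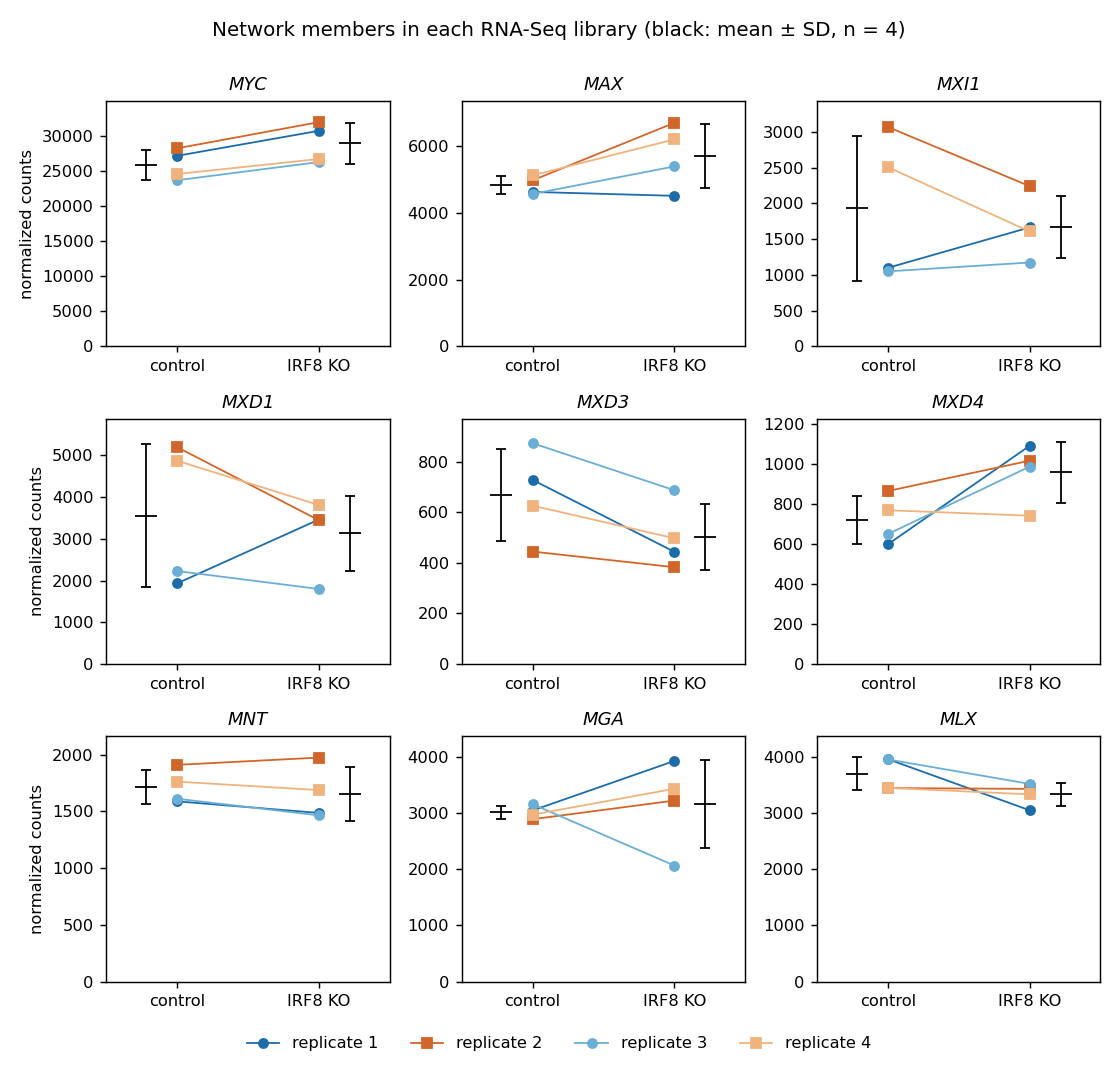
Normalized counts (vertical axis, from 0) of the 9 tested members in each control and IRF8 KO library, with lines joining libraries of the same replicate number and black bars for the mean ± SD (n = 4). MXI1 and MXD1 separate the control replicates 2 and 4 (orange squares) from 1 and 3 (blue circles), while MYC stays between 23696 and 31982.

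Among the MXD repressors, MXD1 and MXI1 differed more between libraries of the same group than between the groups. MXD1, the member that replaces MYC on MAX in maturing cells, held 1934, 5195, 2228 and 4872 normalized counts in control replicates 1 to 4. The knockout replicates held 3463, 3446, 1797 and 3809. Control replicates 2 and 4 were the highest of all 8 libraries and knockout replicate 3 was the lowest. MXD1 had a log2 fold change of -0.10 (SE 0.38, limma adjusted p = 0.894), with an interval from -0.97 to 0.76. Its direction was not stable, with 0.12 without control replicate 2, 0.093 without control replicate 4 and 0.14 without knockout replicate 3.

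MXI1, a close relative of MXD1 that antagonizes MYC in the same way, also had control replicates 2 and 4 above replicates 1 and 3. It held 1098, 3068, 1049 and 2506 normalized counts in the control replicates and 1663, 2240.4, 1173 and 1607 in the knockout replicates. The knockout values all fell inside the range of the controls. The log2 fold change of MXI1 was -0.084 (SE 0.38, limma adjusted p = 0.917), and the interval ran from -0.94 to 0.77. It changed to 0.19 without control replicate 2, to 0.096 without control replicate 4 and to 0.074 without knockout replicate 3. The interval of MXI1 was among the widest of the members.

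MXD3, the MXD member known for being expressed in dividing rather than resting cells, was lower in each knockout library than in its same-numbered control. Its control replicates held 729, 445, 874 and 627 normalized counts and its knockout replicates 444, 383, 688 and 498. The groups overlapped, since control replicate 2 was below knockout replicates 3 and 4. The log2 fold change was -0.40 (SE 0.25, limma adjusted p = 0.322), with paired differences from -0.71 to -0.22. Under the replicate block the limma adjusted p of MXD3 was 0.0765, still short of the threshold. MXD3 lies on chromosome 5, whose median was 0.22, and relative to its chromosome it was lower by a log2 of -0.63 (limma adjusted p = 0.109).

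MXD4 had the highest fold change of the members. It held 599, 865, 649.7 and 769 normalized counts in the control replicates and 1091, 1017, 987 and 742 in the knockout replicates. Knockout replicates 1 to 3 were above all controls, and knockout replicate 4 was not. The log2 fold change of MXD4 was 0.41 (SE 0.18, limma adjusted p = 0.144), and an exact two-sided permutation test gave p = 0.0857. The interval of 1.01-fold to 1.75-fold left out no change by a small margin before adjustment over all genes.

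The larger MAX partners were close to level. MNT, the broadly expressed repressor that occupies MAX in most cells, held 1589, 1911, 1612 and 1763 normalized counts in control replicates and 1487, 1975, 1465 and 1688 in knockout replicates. The knockout values spanned the controls on both sides, and the log2 fold change of MNT was -0.062 (SE 0.13, limma adjusted p = 0.812). MGA, a scaffold that carries MAX into a Polycomb repressor complex, held 3046, 2890.4, 3158 and 2971 normalized counts in control replicates. Its knockout replicates held 3927, 3222, 2066 and 3432. The controls were tightly grouped, and knockout replicate 3 fell below them while the other knockout libraries were above them. For MGA the log2 fold change was 0.03 (SE 0.19, limma adjusted p = 0.939). It was -0.087 without knockout replicate 1 and -0.022 without knockout replicate 4.

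MLX, the partner of the glucose-responsive branch, held 3959.6, 3444, 3954 and 3448 normalized counts in control replicates and 3049.9, 3430.4, 3519.5 and 3333 in knockout replicates. Each knockout library was below its same-numbered control, with a log2 difference of -0.38 in replicate 1 and -0.01 in replicate 2. The log2 fold change was -0.15 (SE 0.11, limma adjusted p = 0.390). The groups overlapped for all 9 tested members, against 25.3% of all tested genes whose groups did not. The direction was the same in all 4 pairs for MYC, MXD3 and MLX, 3 of the 9 members, against 47.8% of all tested genes.

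Of the 4 MLX partners and targets, 0 were called by limma, edgeR or DESeq2. MLXIP, which pairs with MLX and senses glucose, held 4347, 4032, 3968 and 3914 normalized counts in control and 6179, 4802, 4709.9 and 4536 in knockout replicates. All knockout libraries were above all controls, with a log2 fold change of 0.30 (SE 0.13, limma adjusted p = 0.131). Its target TXNIP, an inhibitor of glucose uptake, held 4988, 18337, 5393 and 12942 in control and 3541, 17749, 5952 and 13668 in knockout replicates. TXNIP followed the replicate number in both groups and had a log2 fold change of -0.08 (limma adjusted p = 0.947). MLXIPL and ARRDC4 had log2 fold changes of -1.79 and -0.65, with limma adjusted p-values of 0.306 and 0.363.

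The libraries of replicates 2 and 4 differed from those of replicates 1 and 3 in the levels of some MYC antagonists. For MXI1, MXD1 and MXD3 this difference was larger in control than in knockout cells, and for MAX, MNT and MGA it was larger in knockout cells. The labels give no meaning to the replicate numbers, and the split was read from the libraries, so it is described with no test. In control cells, replicates 2 and 4 were above replicates 1 and 3 by a log2 of 1.37 for MXI1 and 1.28 for MXD1, and MXD3 differed by -0.59. MYC differed by 0.05. In knockout cells the same differences were 0.44 for MXI1, 0.54 for MXD1, -0.34 for MXD3 and 0.04 for MYC. Those of MAX, MNT and MGA were 0.39, 0.31 and 0.22 in knockout cells, against 0.13, 0.20 and -0.082 in control cells. The change between knockout and control therefore depended on which replicates were read. It was 0.27 for MXD1 and 0.38 for MXI1 in replicates 1 and 3, and -0.47 and -0.55 in replicates 2 and 4. For MXD4 it was 0.73 in replicates 1 and 3 and 0.09 in replicates 2 and 4. Between replicates 2 and 4 and replicates 1 and 3, MXD4 differed by 0.39 in control and by -0.26 in knockout cells. The same difference for IRF8, the targeted gene, was -1.11 in control and -1.07 in knockout cells. Across the 8 libraries, with group means removed, MXI1 and MXD1 correlated at 0.92, while MXD3 correlated with them at -0.89 and -0.82. These correlations share the same 8 libraries and the same split, and are given as a description.

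Known MYC targets followed the same split. Genes of the nucleolus and of ribosome making, which MYC activates, were lower in control replicates 2 and 4 by a median log2 of -0.84, with 1 of 28 genes higher there. Their summed normalized counts were 612332, 323985, 599104 and 367554 in control replicates 1 to 4 and 446320, 419557, 574353 and 441221 in knockout replicates. Of the 14 cell cycle targets 1 was higher in control replicates 2 and 4, and the 34 metabolism and translation targets differed by a median of -0.58. Targets that MYC represses differed by a median of 0.65, with 12 of 14 higher in control replicates 2 and 4. The 15 proliferation markers differed by -1.16, with 0 of them higher, while the median over all tested genes was 0.02. In knockout cells the medians were -0.26 for the nucleolus, -0.30 for the cell cycle, 0.05 for repressed targets and -0.22 for proliferation. In control replicates 2 and 4, proliferation markers were thus low, as were the targets that MYC activates. MXD1, MXI1 and the repressed targets were high there. The part of proliferation in these values was not tested.

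**Figure D3:**
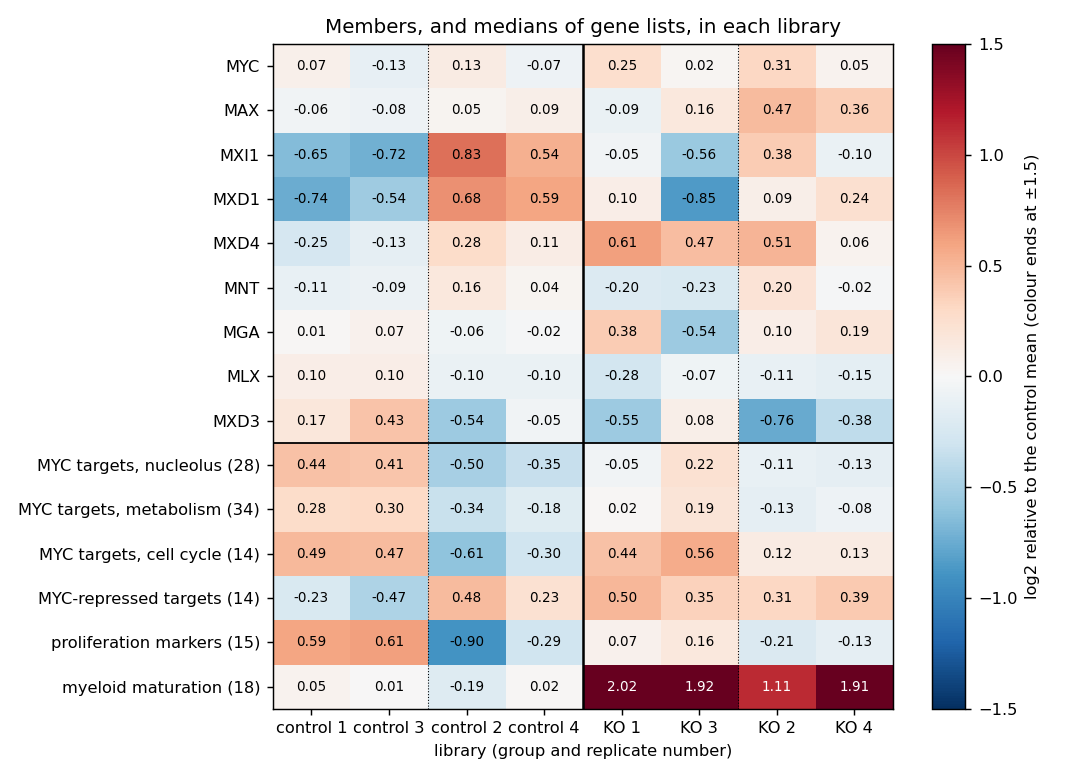
Log2 difference from the control mean in each library (columns, with replicates 1 and 3 beside each other and then 2 and 4) for each tested member and, below the line, the median of each gene list with its number of tested genes. Control replicates 2 and 4 are high for MXI1 and MXD1 and low for the MYC target and proliferation lists, while MYC stays between -0.13 and 0.31.

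Between knockout and control, the share of called genes differed between the lists of more than 1 gene around the network, from 0% of the nucleolar targets to 35.7% of the targets that MYC represses. Over 10 lists of partners, cofactors, corepressors and targets, 5 of 156 tested genes rose and 8 fell, in all 8.33% against 18.2% of all tested genes. Under the same block, 30 of the 156 were called, or 19.2%, against 28.7% of all tested genes, and the 13 genes above were all among them. The median log2 fold change of the 156 genes was -0.05. The number of genes that rose dropped to 3 without control replicate 1 or control replicate 3. The number that fell dropped to 5 without control replicate 1, knockout replicate 1 or knockout replicate 4.

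Of the 16 MYC cofactors, only CDK9 was called. CDK9, the kinase that releases paused RNA polymerase, held between 2892 and 3142 normalized counts in control and between 1676 and 2313 in knockout libraries. It fell by 0.61 on the log2 scale (SE 0.12, limma adjusted p = 0.00946), and it stayed called with each library left out. The cofactors had a median of -0.29, with 13 of 16 below 0. Of 18 genes that control MYC protein turnover, USP22, a deubiquitinase, fell from 22643 ± 4003 to 15317 ± 2269 normalized counts (SD, n = 4), by 0.56 on the log2 scale (limma adjusted p = 0.0444). That call was lost with any library left out other than control replicate 3 or knockout replicate 2, with an adjusted p of up to 0.114, and edgeR gave an adjusted p of 0.0510.

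The corepressors that MXD proteins and MGA recruit held 1 gene called by limma. Of 18 SIN3 complex genes, SAP30L rose from 1274 ± 79.6 to 1817 ± 169 normalized counts (SD, n = 4), with a log2 fold change of 0.51 (limma adjusted p = 0.0169). SAP30L lies on chromosome 5, and relative to its chromosome it differed by 0.28 (limma adjusted p = 0.122). The call was also lost without control replicate 1, control replicate 3 or knockout replicate 4, with an adjusted p of up to 0.0567. SAP30, its close relative and named here after its values were seen, held 1335 ± 228 normalized counts in control and 2206 ± 577 in knockout libraries (SD, n = 4), with a log2 fold change of 0.70 (SE 0.21). SAP30 missed the threshold in limma (adjusted p = 0.0511), and it passed in edgeR (adjusted p = 0.0412), DESeq2 (0.00907) and limma with the replicate block (0.00508). The SIN3 median was 0.03. Of 12 tested genes of the MGA complex, 0 were called by limma, edgeR or DESeq2, with a median of 0.02.

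Among targets that MYC activates, 0 of 28 nucleolar genes were called by limma or edgeR, and DESeq2 called 1 of them as lower. The median was -0.05. Of 34 metabolism and translation targets, with a median of 0.01, limma called TERT and SLC2A1 as lower. TERT, the catalytic part of telomerase, held 623, 213, 544 and 243 normalized counts in control and 21.3, 16.2, 111 and 92.5 in knockout replicates. All TERT values in the knockout were below all controls, with a log2 fold change of -3.03 (SE 0.68, limma adjusted p = 0.0158). SLC2A1, a glucose transporter, fell from 6312 ± 570.1 to 4442 ± 521 normalized counts (SD, n = 4), with a limma adjusted p of 0.0234. The SLC2A1 call was lost without control replicate 1, 2 or 4 or knockout replicate 1 or 4, with an adjusted p of up to 0.0560.

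The 14 cell cycle targets had a median of 0.32, with 11 above 0 and CUL1 called as higher. CUL1, a scaffold of ubiquitin ligases, held 2660.1 to 3871 normalized counts in control and 5976 to 6749 in knockout libraries, a log2 fold change of 0.86 (SE 0.14, limma adjusted p = 0.00376). E2F1, a driver of S phase, fell from 2777 ± 1077 to 1353 ± 223 normalized counts (SD, n = 4) with a limma adjusted p of 0.0414. E2F1 lies on chromosome 20, where the median over 351 tested genes was -0.92, and relative to that median it differed by -0.04 (limma adjusted p = 0.947). Its call also needed every library except control replicates 2 and 4, with an adjusted p of up to 0.107.

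The targets that MYC represses moved in both directions, with 3 higher, 2 lower and a median of 0.32 over 14 genes. The called share was 35.7%, against 18.2% of all tested genes, and the difference was not tested. THBS1, a secreted inhibitor of vessel growth, held 28.2, 25.0, 23.6 and 25.4 normalized counts in control and 2473, 73.6, 543 and 418 in knockout replicates. Every knockout library was above the controls, over a wide range, with a log2 fold change of 4.09 (SE 0.87, limma adjusted p = 0.0125). TGFBR2, a receptor for TGFβ, rose from 2757 ± 292 to 4497 ± 478 (SD, n = 4), with a log2 fold change of 0.71 (limma adjusted p = 0.00532). CDKN2B, a CDK4 inhibitor named here after its values were seen, had a log2 fold change of 0.54 (limma adjusted p = 0.0446), and its call was lost with each of the 8 libraries left out, at adjusted p-values from 0.0523 to 0.121. The differentiation gene NDRG2 fell by 2.96 on the log2 scale, from 104 ± 23.2 to 12.9 ± 4.49 normalized counts (SD, n = 4; limma adjusted p = 0.000546). The antiproliferative gene BTG2 fell by 1.10 on the log2 scale, from 1568 ± 252 to 751 ± 243 (SD, n = 4; limma adjusted p = 0.0136).

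Of the list of myeloid maturation markers, 50% of the tested genes were called, against 18.2% of all tested genes, while no member passed the test. Of 18 tested markers, 8 rose, 1 fell and 9 were not called, with a median log2 fold change of 1.69. The genes that rose were CEBPE, MPO, ELANE, ITGAM, PRTN3, CD68, AZU1 and FCGR1A, and the list does not separate early from late stages. Whether the knockout cells were more mature was not tested. Summed counts of the list of 20 were 40591 to 60422 in control and 144966 to 534236 in knockout libraries. CEBPE, a regulator of granulocyte maturation, rose by a log2 of 5.56 and MPO, a granule enzyme, by 4.08, with limma adjusted p-values of 0.000222 and 9.86e-06. The marker that fell, MMP9, lies on chromosome 20, had a limma adjusted p of 0.0433 and lost its call relative to its chromosome (adjusted p = 0.228). It also lost it when any control replicate, or knockout replicate 3 or 4, was left out, with an adjusted p of up to 0.107. MXD1, which is known for rising as myeloid cells mature, was not called. It held 3129 ± 903 normalized counts in knockout and 3557 ± 1714 in control libraries (SD, n = 4). The limma interval of MXD1, from 0.511-fold to 1.69-fold, held both a fall and a rise, so the test cannot decide between them. The 15 proliferation markers held 0 genes called by limma, edgeR or DESeq2, with a median of -0.03.

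The labelled line was also checked. FLT3, the receptor whose mutation marks this line, held between 39931 and 66773 normalized counts, and CD34, a stem cell marker, held at most 17.6. Of 7 tested markers of the line, PTPRC and ANPEP rose and MEIS1 fell. The PTPRC call was kept only without control replicate 2, control replicate 4 or knockout replicate 2, and the MEIS1 call only without knockout replicate 2, with limma adjusted p-values of up to 0.0711 and 0.0793. Of 14 markers of T, B, erythroid, megakaryocyte, epithelial and fibroblast cells, 5 were tested, and MS4A1, HBB and PF4 were among those at 0 in every library. The summed counts of the 14 markers were 6321 to 15618 in control and 2264 to 11037 in knockout libraries, with KRT18 among those called as lower, and their part in the results was not tested.

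**Figure D4:**
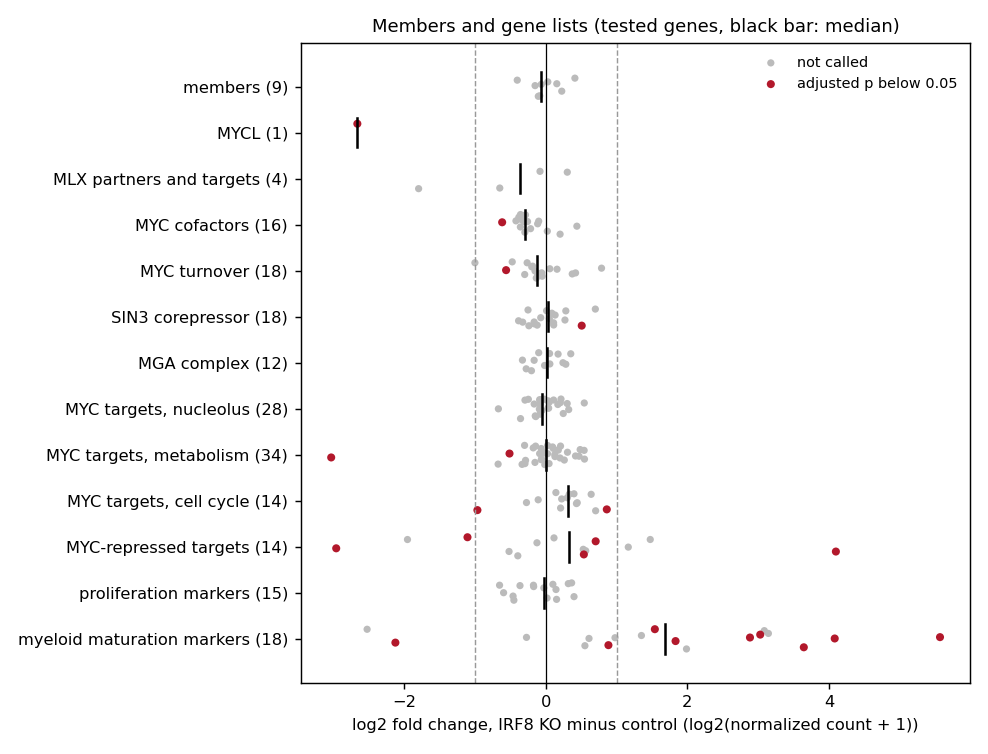
Log2 fold change of each tested gene (horizontal axis, knockout minus control) for the members and for each gene list, with the number of tested genes in brackets, red for an adjusted p below 0.05 and a black bar at the median. The members lie between -0.40 and 0.41 with no red point, while myeloid maturation markers have a median of 1.69.

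The genes whose levels followed MYC most closely were found with the group means removed, over 8 libraries and the 10985 genes whose mean reached 100 normalized counts. The Pearson correlations of log2 values were 0.95 for ZNF792 and CES2, 0.93 for ARMH3, and 0.91 for TSC2 and SHISA7. None of the other members was among these genes, which had the highest of 10985 correlations over 8 libraries. Correlations this high can arise by chance among so many genes, and a link to MYC was not tested. MYC correlated at 0.04 with MAX, at 0.34 with MXD1 and at -0.79 with MXD3 over the same libraries.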

How the data were processed

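RNA of MV4-11 control and IRF8 KO cells was sequenced from poly(A)-selected, strand-specific libraries (4 replicates each). The authors aligned reads with RNA-Star to GENCODE genes, counted them with featureCounts and deposited a signal per gene and library, namely counts divided by a DESeq2 size factor. Builds hg19 and hg38 stand in the submitters' processing notes without a role. The deposited DESeq2 comparison (means, log2 fold changes, errors, Wald statistics and p-values) was not used, and the ChIP-Seq samples were not analysed here. Control columns are named WT in the file and were matched by replicate number, and 0 columns were left out. Whole reads were recovered for 100% of values within 0.01 reads.

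Genes with a mean of at least 10 (13110 of 19590, with 2197 at 0 everywhere) were tested on log2(normalized count + 1) in R 4.3.3 with limma 3.58.1, whose prior variance was robust and trended, and p-values were adjusted by the Benjamini-Hochberg method. This scale understates changes of low genes. The test was checked on simulated data. Alternatives were the pseudocount, filter, scaling, prior, a chromosome-relative scale, the replicate block, leave-one-out, edgeR 4.0.16 and DESeq2 1.42.0 on recovered reads, and, chosen after seeing the data, a covariate for replicates 1 and 3 against 2 and 4. Deviations of same-numbered libraries from their group means correlated at 0.37, 0.48, 0.45 and 0.50. Differently numbered libraries on the same side of that split correlated alike, at 0.40 to 0.47. These values show the split, and they do not show that the numbers pair the samples. Chromosomes (13012 genes) and promoter windows came from RefSeq (GRCh38.p14). Named genes were the members, IRF8, MYCL, the genes most like MYC, all genes of small lists and up to 2 rises and 2 falls of larger ones. PVT1 was not analysed here, nor was RYBP of the MGA complex, and some marker genes are not reported here. Members and lists were chosen with earlier results of these data known.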

Additional observations from a re-analysis of the deposited data

Results flagged for a closer look

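In 1 of 68 groups of 4 libraries, over 34 genes, a single library stood far from the rest by the Dixon gap test, which marks about 1 in 20 such groups by chance. MLXIP held 6178.6 normalized counts in knockout replicate 1, the highest of its group, against 4802 in the next library and 4536 in the lowest.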

How the results depend on the processing

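Of 180 member fold changes under alternatives, 172 kept their direction and side of the threshold, 8 changed direction and 0 became significant. The 8 came from leaving out 1 library. MXI1 was 0.19, 0.096 and 0.074 without control replicate 2, control replicate 4 or knockout replicate 3, and MXD1 was 0.12, 0.093 and 0.14 without the same libraries. MGA was -0.087 and -0.022 without knockout replicate 1 or 4. Over all left-out libraries MXI1 ran from -0.32 to 0.19, MXD1 from -0.35 to 0.14 and MGA from -0.087 to 0.22. MYC stayed between 0.073 and 0.20 in all 20 of its alternatives, with limma, edgeR or DESeq2 adjusted p-values from 0.229 to 0.755, and 0.11 to 0.20 when 1 library was left out. The lowest adjusted p of any member was 0.0765, for MXD3 with the replicate block. Of the network list genes, 5 were higher and 8 lower. With the replicate block these counts were 16 and 14, with the covariate for replicates 1 and 3 they were 19 and 20, and at an unadjusted p below 0.01 with a 2-fold change they were 1 and 5. The higher count was 3 relative to the chromosome median and 3 to 5 when 1 library was left out. The lower count was 17 by DESeq2 and 5 to 10 when 1 library was left out. The cause was not tested. The replicate block changed no call of a member. With 4 libraries a group, differences of low genes such as MLXIPL, at 2.13 counts in 1 library, carry wide intervals.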
